A study of Mus musculus with 104 samples.

Results

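Muscle stem cells of old mice were compared between calorie restriction and a control diet at T20, 1 of 6 times of day at which cells were collected. The comparison took every array titled T20 and not titled adult, which gave 8 arrays, 4 under calorie restriction (CR) and 4 under the control diet, beside 42 of old cells at the other 5 times and 54 of adult cells. All 8 came from Per1-Venus BAC transgenic mice on a C57B6/J background, tagged 83 to 97 weeks old, so the controls carry the reporter too. The control mice fed ad libitum, and the CR mice received 30% less food for 25 weeks after 3 weeks of adaptation with a cut of 10% per week. The mice were 55 to 69 weeks old when the adaptation began. The titles call the arrays biological replicates, and the design text gives 4 mice per time and diet, with a mouse of each diet taken per day. The design text writes the time as ZT20, zeitgeber time, which is counted from lights on and falls late in the dark phase. Adult cells were left out, because adult control cells at T20 had 1 array.

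Muscle stem cells, or satellite cells, lie quiescent between the muscle fibre and its basal lamina and rebuild fibres after injury. Their circadian clock is a feedback loop in which ARNTL (BMAL1) and CLOCK drive the Per and Cry genes, whose proteins then inhibit ARNTL and CLOCK, while NR1D proteins repress Arntl and DBP relays the rhythm to output genes. Feeding time and energy supply act on this loop and on the synthesis of sterols and fatty acids, which SREBP factors switch on when membranes hold little sterol or when insulin is high.

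The values are log2 RMA expression values, so a difference of 1 is a doubling, and values of different probe sets are not set against each other as RNA amounts. Pearson correlations between the 8 arrays ran from 0.939 to 0.971. The cells carried the markers of muscle stem cells: all 15 listed genes were measured, among them Pax7 (10.08 ± 0.12 under CR and 9.75 ± 0.16 under control, SD, n = 4 and 4), and their mean per array was 9.49 to 9.73 under CR and 9.44 to 9.59 under control. Signal from other cell types was present as well, such as the mural gene Myh11 (10.29 to 11.45 over the 8 arrays) and the myelin gene Mbp (9.58 to 11.28). In bulk cells, fewer cells of a type and less RNA per cell cannot be told apart.

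At T20 the diet changed a small number of genes, led by Rtl3, Lag3 and Kdm2b above the control and Hrct1 below it. Of 11853 genes tested with limma, 20 passed a Benjamini-Hochberg adjusted p of 5%, which is 0.169% of the genes. In the direction of CR, 9 genes rose (0.0759%) by 1.42-fold to 2.53-fold, and 11 genes fell (0.0928%) by 1.39-fold to 1.69-fold. All 9 risen genes had 4 CR arrays above all 4 control arrays, and 9 of the 11 fallen genes had them below. Over all genes tested, the CR arrays lay wholly above the control arrays in 2.32% and wholly below in 2.56%. At an unadjusted p under 0.05 there were 670 genes higher (5.65%) and 751 lower (6.34%), and the median difference of all genes was -0.01. The calls hung on single arrays: limma called 0 genes without CR replicate 1, 3 or 4 or without control replicate 1 or 4, with 1058 to 1422 at an unadjusted p under 0.05, 8 without control replicate 3, 34 without CR replicate 2 and 44 without control replicate 2. All 20 genes kept their direction in each of these runs, which was fixed in advance wherever the diets do not overlap.

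**Figure D1:**
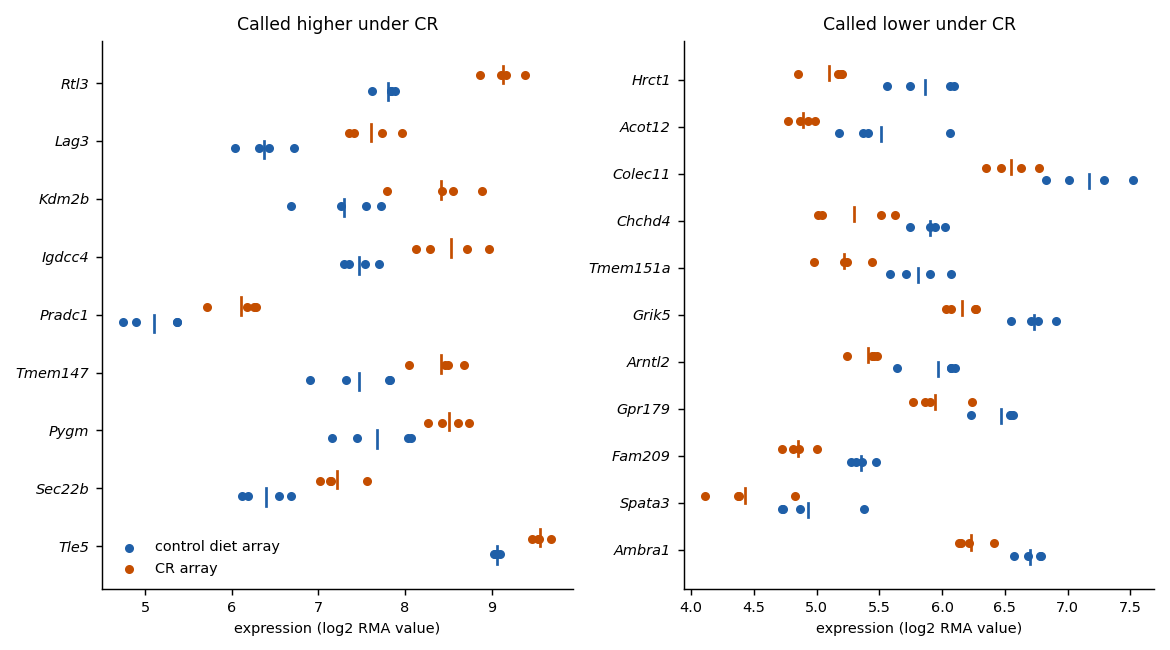
Expression (log2 RMA value, horizontal axis) of the 9 genes called higher (left) and the 11 called lower (right) under calorie restriction in aged cells at T20. Each point is an array (4 per diet), vertical bars are means, orange is CR and blue is control; only Gpr179 and Spata3 overlap between the diets.

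Among the genes that rose, the widest difference belonged to Rtl3, a gene derived from the gag gene of a retrotransposon. Its values were 9.11, 8.86, 9.17 and 9.39 in the CR arrays and 7.84, 7.62, 7.84 and 7.89 in the control arrays. The diets were thus 0.98 apart at their closest, and the difference was 1.34 ± 0.31 (SE, n = 4 and 4, limma adjusted p = 0.0395). Rtl3 was also the gene of the 20 that passed the test at T4, with a difference of 1.43 ± 0.31 (limma adjusted p = 0.0281). Lag3, an inhibitory receptor best known from T cells, stood at 7.41, 7.96, 7.35 and 7.73 under CR and at 6.43, 6.72, 6.31 and 6.04 under control. Its difference of 1.24 ± 0.26 (limma adjusted p = 0.0365) stood beside lymphocyte markers with overlapping diets. Of 7 such markers, 2 were measured, and their mean was 5.97 to 6.44 in the CR arrays and 6.03 to 6.34 in the control arrays, while Cd3e, Cd3g and Ptprc were below the filter on dim probe sets.

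Kdm2b, a histone demethylase that binds unmethylated CpG sites, had the smallest adjusted p (0.0324, limma). It measured 8.43, 7.79, 8.89 and 8.55 under CR against 6.69, 7.55, 7.72 and 7.26 under control, a difference of 1.11 ± 0.22. Its SDs were 0.46 and 0.45, and with only the 8 arrays in the fit its limma adjusted p was 0.443. The lowest CR array and the highest control array were only 0.08 apart. Tle5, a short Groucho-family protein that modulates corepressors, differed by 0.50 ± 0.12 (limma adjusted p = 0.0442) with SDs of 0.09 and 0.03: 9.55, 9.53, 9.69 and 9.47 under CR and 9.03, 9.04, 9.06 and 9.10 under control.

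Sec22b, a SNARE of vesicles between the endoplasmic reticulum and the Golgi, measured 7.14, 7.02, 7.56 and 7.15 under CR and 6.12, 6.55, 6.19 and 6.69 under control, a difference of 0.83 ± 0.19 (limma adjusted p = 0.0395). Tmem147, a membrane protein of the endoplasmic reticulum, measured 8.05, 8.50, 8.68 and 8.46 against 6.90, 7.81, 7.83 and 7.32, a difference of 0.95 ± 0.22 (limma adjusted p = 0.0395). Pradc1, a secreted protein with a protease-associated domain, measured 6.26, 5.72, 6.28 and 6.18 against 5.37, 5.37, 4.75 and 4.89, a difference of 1.01 ± 0.23 (limma adjusted p = 0.0395). In all 3 genes the lowest CR array lay 0.22 to 0.35 above the highest control array. A dimmer probe set of Sec22b, below the filter, differed by -0.03 with overlapping arrays.

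The other risen genes were Igdcc4, an immunoglobulin-family membrane protein, and Pygm, the muscle form of glycogen phosphorylase. Igdcc4 differed by 1.05 ± 0.25 (limma adjusted p = 0.0455), but its other probe sets differed by 0.24 and -0.22 with overlapping arrays. Pygm measured 8.74, 8.43, 8.26 and 8.61 under CR and 7.16, 8.04, 8.07 and 7.45 under control, a difference of 0.83 ± 0.19 (limma adjusted p = 0.0395). Pygm is also abundant in muscle fibres. The 8 measured fibre markers of 11 listed had a mean of 5.69 to 6.86 in the CR arrays and 5.84 to 6.21 in the control arrays. Of these 8, 7 were positive, with a median of 0.22, against 47.9% and -0.01 for all genes. CR replicate 1, highest for Pygm, was lowest for the fibre markers. Whether fibre signal contributed to the Pygm difference was not tested. The muscle enolase gene Eno3, 1 of these markers, was 6.76 to 7.28 under CR and 6.08 to 6.75 under control (0.63 ± 0.23, limma adjusted p = 0.234).

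The fallen genes included a relative of the clock gene Arntl. Arntl2 (BMAL2), which can pair with CLOCK, measured 5.44, 5.46, 5.48 and 5.24 under CR and 6.10, 5.64, 6.07 and 6.07 under control. The diets did not overlap, and the difference was -0.56 ± 0.13 (limma adjusted p = 0.0395); a dimmer probe set of the gene, below the filter, differed by -0.07. Ambra1, which regulates autophagy through Beclin, measured 6.13, 6.41, 6.21 and 6.15 against 6.57, 6.79, 6.68 and 6.78, a difference of -0.48 ± 0.11 (limma adjusted p = 0.0395). A second probe set of Ambra1 above the filter differed by -0.14 with overlapping arrays, and 1 below the filter by 0.27.

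Fallen genes of metabolism were Chchd4 and Acot12. Chchd4 (MIA40), the oxidoreductase that imports proteins into the mitochondrial intermembrane space, measured 5.04, 5.51, 5.62 and 5.01 under CR and 6.02, 5.94, 5.74 and 5.90 under control (-0.61 ± 0.14, limma adjusted p = 0.0451). Acot12, an acetyl-CoA thioesterase, measured 4.99, 4.77, 4.87 and 4.93 against 5.41, 5.18, 5.37 and 6.06 (-0.61 ± 0.14, limma adjusted p = 0.0395), with control replicate 4 well above the other controls. Both genes had every CR array below every control array on the probe sets used. A dimmer probe set of Acot12, below the filter, differed by -0.04 with overlapping arrays.

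Grik5, a subunit of kainate-type glutamate receptors, measured 6.27, 6.26, 6.07 and 6.03 under CR and 6.71, 6.76, 6.91 and 6.55 under control (-0.57 ± 0.13, limma adjusted p = 0.0395). Colec11, a soluble lectin of the complement system, measured 6.63, 6.77, 6.47 and 6.35 against 7.29, 7.52, 7.01 and 6.83 (-0.61 ± 0.14, limma adjusted p = 0.0395). The diets were 0.28 apart in Grik5 and 0.06 apart in Colec11. Hrct1 showed the largest fall, -0.76 ± 0.17 (limma adjusted p = 0.0395), with 5.19, 4.85, 5.17 and 5.20 under CR and 5.56, 5.74, 6.06 and 6.09 under control. Tmem151a differed by -0.59 ± 0.13 and Fam209 by -0.50 ± 0.12. The last members, Gpr179 (-0.53 ± 0.12) and Spata3 (-0.50 ± 0.12, both limma adjusted p at or under 0.0467), fall outside the naming rule because their diets overlap, and are named after their values were seen.

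Probe signal and direction went together. Among the 3951 dimmest genes, 101 were higher and 413 lower under CR at an unadjusted p under 0.05, with a median difference of -0.08. Among the 3951 brightest, 351 were higher and 97 lower, with a median of 0.06. The 9 called higher had a median level of 8.00 and the 11 called lower of 5.57, against 6.31 for all genes. The arrays at the ends of the first principal component of these 8 (27.5% of their variance) were CR replicate 3 and control replicate 1. In CR replicate 3 the dimmest genes lay 0.08 below and the brightest 0.14 above the mean of the 8 arrays; in control replicate 1 they lay 0.08 above and 0.17 below. With both arrays left out limma called 0 genes, 980 at an unadjusted p under 0.05. With the first residual component in the model limma called 33, all 20 among them. That component comes from the residuals around the group means, so adding it leaves the diet differences unchanged and alters only their spread. The run with it therefore cannot test whether the deviations of CR replicate 3 and control replicate 1 shaped the calls.

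**Figure D2:**
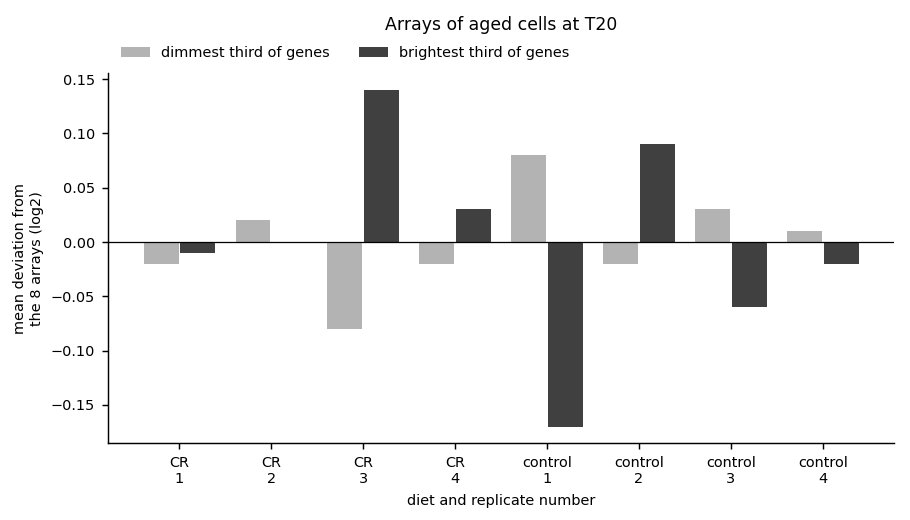
Mean deviation (log2, vertical axis) of the dimmest (light bars) and brightest (dark bars) 3951 genes in each of the 8 aged T20 arrays from the mean of the 8. CR replicate 3 (-0.08 and 0.14) and control replicate 1 (0.08 and -0.17) deviate in opposite ways.

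The next genes by p did not pass the test. Above the control lay Golph3, a Golgi phosphoprotein, with 9.40, 8.74, 9.05 and 8.97 against 8.24, 8.65, 8.22 and 8.73 (0.58 ± 0.14, limma adjusted p = 0.0763); its other probe sets differed by 0.00 and 0.12 with overlapping arrays, and the mean of its probe sets by 0.23. The fatty acid synthase gene Fasn is described with its pathway below. Mrgprh, a Mas-related receptor, had the widest difference of the genes named here, 1.81 ± 0.48 (limma adjusted p = 0.111), with 6.52 to 8.03 under CR and 4.87 to 5.86 under control. Zdhhc17, a palmitoyltransferase, differed by 1.33 ± 0.36 and the histone H2A deubiquitinase gene Usp16 by 0.85 ± 0.23 (both limma adjusted p = 0.119). The other probe sets of Zdhhc17 differed by -0.05 and -0.25 with overlapping arrays, and the mean of those above the filter by 0.64. Ccdc61 differed by 0.65 ± 0.17 (limma adjusted p = 0.0936). On the probe sets used, the CR arrays lay above the control arrays in all of these genes except Usp16. A dimmer probe set of Usp16, below the filter, differed by -0.25 with overlapping arrays.

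Below the control, 2 genes known from inflammatory signalling stood out in size. Osmr, the receptor subunit for oncostatin M, measured 8.46, 8.80, 8.42 and 8.96 under CR and 9.10, 10.22, 9.23 and 10.06 under control (-0.99 ± 0.26, limma adjusted p = 0.0936). Its other probe sets differed by -1.02 and -0.31 with overlapping arrays. Serpina3n, an acute-phase protease inhibitor, measured 4.68, 4.61, 4.29 and 4.60 against 5.33, 6.08, 5.39 and 6.37 (-1.25 ± 0.33, limma adjusted p = 0.104). On the probe sets used, the diets did not overlap in either gene, and control replicates 2 and 4 were the highest in both. 1810064F22Rik, D930048N14Rik, Stamos and Rab11fip4 differed by -0.39 to -0.60. The other probe sets of D930048N14Rik differed by -0.15, -0.12 and -0.09 with overlapping arrays. Those of Rab11fip4 differed by -0.31 without overlap and by 0.08 with overlap.

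The clock itself did not differ detectably at T20. Of 19 measured members of 4 clock lists, 0 passed the test in limma, 0 had an unadjusted p under 0.05, and all 19 had overlapping diets. Among the activators, Arntl measured 8.12, 7.22, 8.05 and 7.23 under CR and 7.30, 7.94, 7.74 and 7.14 under control, a difference of 0.13 ± 0.33 with a 95% interval from -0.53 to 0.78. Clock differed by 0.03 ± 0.17, Npas2 by 0.09 ± 0.17 and Rora by 0.04 ± 0.16. Among the repressors, Nr1d2 differed by 0.27 ± 0.17, Cry2 by 0.11 ± 0.29, Per1 by -0.07 ± 0.14, Per2 by 0.01 ± 0.23 and Per3 by -0.15 ± 0.27. Of the output factors, Dbp differed by 0.29 ± 0.24, Tef by -0.08 ± 0.15, Hlf by 0.12 ± 0.20 and Nfil3 by -0.01 ± 0.11. The kinase gene Csnk1d, at -0.15 ± 0.08, had the smallest adjusted p of the 19 (0.464, limma).

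Arntl and Dbp, members of these lists, passed the test at T4 in old cells. Arntl was lower under CR at T4 (difference -1.96 ± 0.33, 5.36 ± 0.36 against 7.32 ± 0.31, SD, n = 4 and 4, limma adjusted p = 0.000303), and differed by 0.91 ± 0.33 at T16 (limma adjusted p = 0.396). Dbp was higher under CR at T4 (1.25 ± 0.24, limma adjusted p = 0.00577) and stood at 6.18 ± 0.18 under CR and 7.19 ± 0.21 under control at T16. At T20 the means of Arntl under the diets were 7.66 ± 0.50 and 7.53 ± 0.37, and those of Dbp 6.48 ± 0.53 and 6.19 ± 0.26. T20 was the time of the highest Arntl mean and the lowest Per3 mean in both diets.

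**Figure D3:**
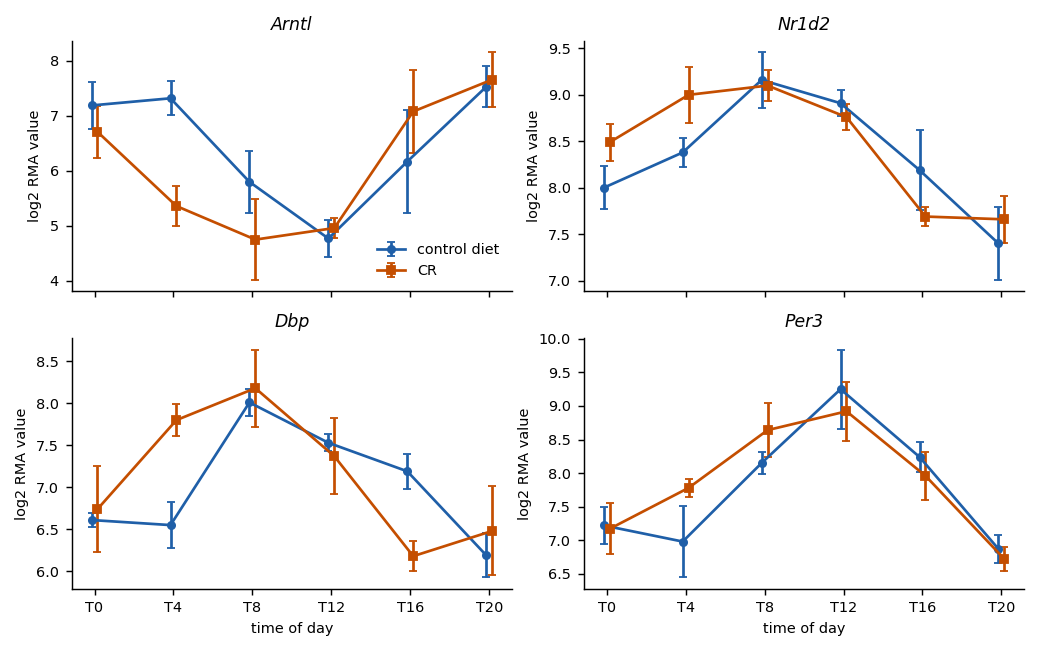
Expression (log2 RMA value, vertical axis) of Arntl, Nr1d2, Dbp and Per3 in aged cells at 6 times of day (horizontal axis), as means with SD over 4 or 5 arrays per point, blue for the control diet and orange for CR. Arntl under CR differs from control by -1.96 at T4 and by 0.13 at T20.

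The genes called at T20 were mostly not called at other times. Of the 20, 1 passed the test at T0 and 1 at T4, and 0 passed at T8, T12 or T16. The gene at T0 was Chchd4, with a difference of -0.63 ± 0.14 (limma adjusted p = 0.007), and the gene at T4 was Rtl3. The test called 206 genes at T0 (1.74%), 27 at T4 (0.228%), 34 at T8 (0.287%), 13 at T12 (0.11%) and 18 at T16 (0.152%). The median difference of the 9 risen genes was 1.01 at T20 and between -0.02 and 0.19 at the other times, and that of the 11 fallen genes was -0.57 at T20 and between -0.16 and 0.12 elsewhere. Since these genes were chosen at T20, a smaller difference elsewhere is partly fixed by that choice. They had the same sign as at T20 in 15, 17, 7, 9 and 15 of 20 at T0, T4, T8, T12 and T16, where 59.3%, 53.3%, 43.8%, 52% and 53.7% of all genes had it. In adult cells at T20, where 5 CR arrays met a single control array and no test is given, and where the CR arrays are tagged 47 to 57 weeks but the control array 83 to 97 weeks like the old mice, 8 of the 9 and 9 of the 11 had the same sign, against 58.3% of all genes.

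**Figure D4:**
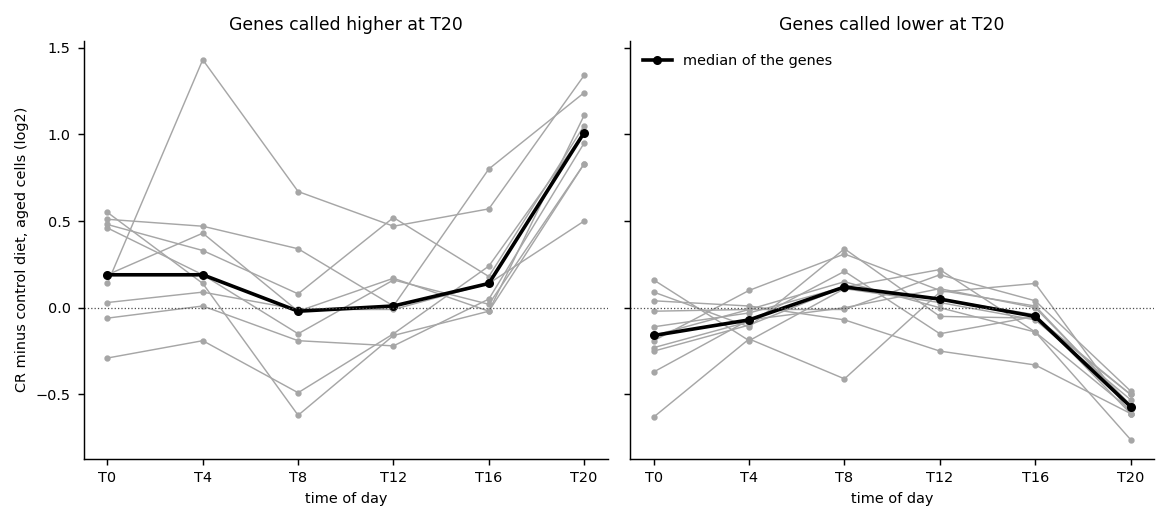
Difference between CR and control diet (log2, vertical axis) in aged cells at 6 times of day (horizontal axis) for the 9 genes called higher (left) and the 11 called lower (right) at T20. Grey lines are genes and the black line is their median, which is 1.01 and -0.57 at T20 and between -0.16 and 0.19 elsewhere; the genes were chosen at T20.

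A direct test of the difference at T20 against the mean difference at the other 5 times called 2 genes (0.0169%), Pradc1 and Hsp90b1, both more positive at T20. Pradc1 differed from the other times by 1.19 ± 0.25 (limma adjusted p = 0.0498): its diet difference was -0.29, -0.19, -0.49, -0.15 and 0.24 from T0 to T16 and 1.01 at T20. Hsp90b1, the HSP90 chaperone of the endoplasmic reticulum (GRP94), differed from the other times by 0.50 ± 0.10 (limma adjusted p = 0.0498). It was lower under CR at T8 (-0.41 ± 0.10, limma adjusted p = 0.029). Its differences were -0.27, -0.23 and -0.18 at T0, T4 and T12 and 0.07 ± 0.10 at T16. At T20 it measured 10.28, 10.45, 10.63 and 10.57 under CR and 10.05, 10.23, 10.25 and 10.23 under control, and this difference of 0.29 ± 0.10 did not pass on its own (limma adjusted p = 0.19). Both calls sat at the edge of the threshold: without a filter on dim probe sets their adjusted p was 0.0513 and limma called 0 genes, and without single arrays it called between 0 and 20 (0 without CR replicate 3 or 4 or control replicate 1 or 4, 4 without CR replicate 1, 5 without control replicate 3, and 20 without CR replicate 2 or control replicate 2).

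The next genes in this test of T20 against the other times did not pass it. They were Tmem147 (1.04 ± 0.24), 2510039O18Rik (1.24 ± 0.29), Sec22b (0.85 ± 0.21) and the formaldehyde-clearing dehydrogenase gene Adh5 (0.91 ± 0.22) in the positive direction. In the negative direction they were Grik5 (-0.64 ± 0.14), 1810064F22Rik (-0.69 ± 0.16), Tmem151a (-0.59 ± 0.14), Fam209 (-0.54 ± 0.13), the ATP-gated channel gene P2rx3 (-0.59 ± 0.14) and the carbonyl reductase gene Cbr2 (-1.20 ± 0.29), all 10 at a limma adjusted p of 0.0801. Control replicate 4 held the high values of Cbr2, at 6.94 against 4.48 to 5.18 in the other controls. At an unadjusted p under 0.05, 584 genes (4.93%) were more positive and 589 (4.97%) more negative at T20 than at the other times.

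Hsp90b1 belongs to the unfolded protein response, the chaperone programme of the endoplasmic reticulum. At T20, 11 of its 16 measured genes were positive and 5 negative or at 0, where 47.9% of all genes were positive. In this list 0 passed the test, and 1 in each direction had an unadjusted p under 0.05, Hsp90b1 and Herpud1 (-0.26 ± 0.12). At that p, 5.65% of all genes were higher and 6.34% lower. Against the other times, Pdia4 (0.41 ± 0.19, limma adjusted p = 0.447) and Pdia6 (0.42 ± 0.17, limma adjusted p = 0.401), both disulfide isomerases, were more positive at an unadjusted p under 0.05. With Hsp90b1 these made 3 of 16, where 4.93% of all genes were more positive at that p. The median of the list in this comparison was 0.23. The median difference was -0.11 over the other times and 0.12 at T20, where the brightest 3951 genes had a median of 0.06.

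Promoters are shown for 3 genes, each of which holds the letters of a regulatory motif, to let the sequence be seen beside the values: Hsp90b1, which differed between T20 and the other times, Insig1 of the sterol group and Ifit3 of the interferon group. Each is the stretch of 250 bases before the RefSeq start site on GRCm38.p6, written 5′ to 3′ on the gene's strand. Hsp90b1 lies at chr10:86705445-86705694 on the minus strand, Insig1 at chr5:28071162-28071411 and Ifit3 at chr19:34583279-34583528 on the plus strand. Capitals mark the endoplasmic reticulum stress element (CCAAT, 9 bases of any kind, CCACG) in Hsp90b1, CCAAT in Insig1 and the interferon-stimulated response element (GAAA, 2 bases of any kind, GAAA) in Ifit3, on either strand.
Hsp90b1: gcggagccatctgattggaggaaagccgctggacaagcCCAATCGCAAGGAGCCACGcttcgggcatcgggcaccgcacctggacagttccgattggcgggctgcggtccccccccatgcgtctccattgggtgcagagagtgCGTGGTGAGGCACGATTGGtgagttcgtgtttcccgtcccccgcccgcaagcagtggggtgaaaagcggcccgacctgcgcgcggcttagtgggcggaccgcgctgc
Insig1: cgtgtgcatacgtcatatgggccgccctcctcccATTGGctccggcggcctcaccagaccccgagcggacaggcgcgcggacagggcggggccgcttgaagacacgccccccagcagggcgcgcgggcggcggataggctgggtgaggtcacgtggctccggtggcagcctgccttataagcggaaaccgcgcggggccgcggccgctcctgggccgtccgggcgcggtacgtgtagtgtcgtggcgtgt
Ifit3: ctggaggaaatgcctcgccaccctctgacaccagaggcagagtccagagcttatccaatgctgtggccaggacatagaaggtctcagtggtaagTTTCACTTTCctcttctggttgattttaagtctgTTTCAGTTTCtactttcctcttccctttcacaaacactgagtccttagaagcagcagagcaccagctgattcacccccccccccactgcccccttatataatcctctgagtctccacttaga
Hsp90b1 holds 2 matches, Insig1 holds 1 and Ifit3 holds 2.

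In all, 11 motifs were searched on both strands in 32851 promoter windows of 300 bases (250 before and 50 after the start), after the values were known, and read for the 20 called genes and the clock, sterol, interferon and unfolded protein response lists. The endoplasmic reticulum stress element, which contains CCAAT, matched in 0.119% of all windows and in 5 of the 15 genes of the unfolded protein response that had a window (Calr, Creld2, Hsp90b1, Hspa5 and Pdia6). The interferon element matched in 3.44% of all windows and in 1079 of 27025 genes. It matched in 3 of 6 interferon genes (Ifih1, Ifit3 and Rsad2, with 3 of 7 windows) and, among the 20 called genes, in Colec11. Percentages are of windows, while list counts are of genes, and a gene with several windows counted if any of them matched. CCAAT matched in 37.4% of all windows and in 11096 of 27025 genes. It matched in 5 of 6 sterol genes, in 13 of 15 unfolded protein response genes and in 12 of 15 clock genes (15 of 23 windows). Of the risen genes with a window, 4 of 7 matched (Kdm2b, Pradc1, Rtl3 and Sec22b, with 5 of 11 windows). So did 1 of 6 interferon genes and 0 of 11 fallen genes. The E-box CACGTG, the letters that ARNTL and CLOCK bind (7.15% of all windows), and the D-box (TTATGTAA or TTACGTAA, 1.06%) were in none of the 18 called genes that had a window. Of the 15 clock genes with a window, 4 held the E-box (Bhlhe41, Ciart, Per1 and Tef, with 5 of 23 windows) and Per3 held the D-box (1 of 23 windows). Over all 27025 genes, 2187 held the E-box and 333 the D-box. The E-box also matched in Insig1, 1 of 6 sterol genes, where it lies unmarked in the printed stretch. It matched in 2 of 15 unfolded protein response genes, Calr and Dnajb9. The sterol element (TCACNCCAC or TCACNCCAT, 1.98%) and its core TCACNCCA (4.36%) matched in Srebf2 and Hsp90b1 and in none of the called genes. The glucocorticoid element (GNACA, 3 bases of any kind, TGTNC, 0.475%) matched in none of these genes, and the cAMP element TGACGTCA (1.79%) matched in Tmem147 and Hlf. TGGGAA, bound by RBPJ (25.6%), matched in Sec22b, Tmem147, Arntl2, Chchd4, Colec11 and Tmem151a of the called genes, and the STAT motif TTCNNNGAA (8.3%) in Chchd4 and Colec11. A match is a description of the letters and not a shown binding site.

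Genes of sterol and fatty acid synthesis lay higher under CR at T20 as a group, though 0 passed the test. Of 15 listed, 9 were measured, all 9 had a positive difference, against 47.9% of all genes, and 5 had an unadjusted p under 0.05 in that direction, where 5.65% of all genes had one. Their median difference was 0.38 against -0.01 for all genes and 0.06 for the brightest. Their mean per array was 7.89, 8.07, 8.23 and 8.03 under CR and 7.72, 7.47, 7.78 and 7.67 under control, so the diets did not overlap. At the other times the median difference of the list was 0.07.

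Fasn, the fatty acid synthase gene, measured 9.18, 8.94, 9.14 and 9.11 under CR and 8.54, 7.97, 8.81 and 8.63 under control (0.61 ± 0.16, limma adjusted p = 0.111). Insig1, whose protein holds the SREBP complex in the endoplasmic reticulum and which is itself an SREBP target, measured 10.31, 10.19, 10.56 and 10.29 against 9.97, 9.33, 9.93 and 9.63 (0.63 ± 0.18, limma adjusted p = 0.133). Idi1, an isomerase of isoprenoid synthesis, differed by 0.59 ± 0.25, the desaturase gene Scd1 by 0.38 ± 0.17 and the squalene synthase gene Fdft1 by 0.38 ± 0.17. In Fasn, Insig1, Idi1 and Scd1 the diets did not overlap. The acetyl-CoA carboxylase gene Acaca (0.18 ± 0.19), Srebf2 (0.25 ± 0.17), Sqle (0.30 ± 0.30) and Cyp51 (0.24 ± 0.24) had overlapping arrays.

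**Figure D5:**
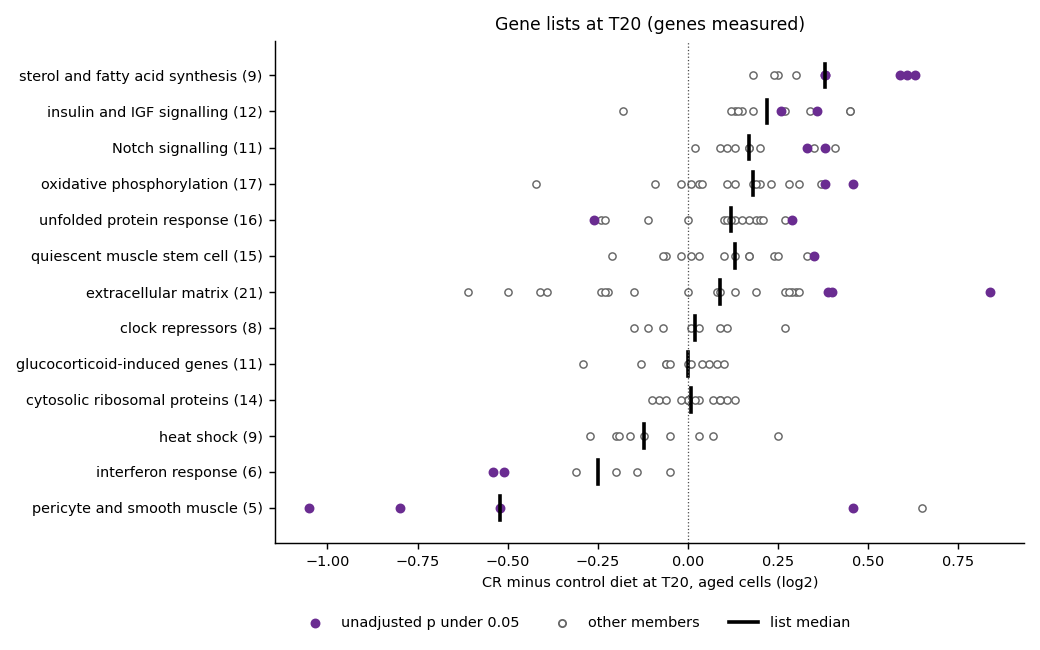
Difference between CR and control diet at T20 in aged cells (log2, horizontal axis) for the measured members of 13 of the 37 gene lists (number measured in brackets). Filled points have an unadjusted p under 0.05, open points do not, and bars are list medians, which run from 0.38 in sterol and fatty acid synthesis to -0.52 in the pericyte and smooth muscle markers; no member passed the adjusted test.

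Insulin and IGF signalling genes were positive in 11 of 12 measured, with 0 called, 2 higher at an unadjusted p under 0.05 and a median of 0.22. Over all genes 47.9% were positive and 5.65% were higher at that p, and the brightest 3951 genes, with 351 higher and 97 lower, had a median of 0.06. The ligand gene Igf2 measured 10.47, 10.67, 10.75 and 10.77 under CR and 9.93, 10.46, 10.48 and 10.36 under control (0.36 ± 0.12, limma adjusted p = 0.208), and the binding protein gene Igfbp4 differed by 0.26 ± 0.13 (limma adjusted p = 0.385). The receptor gene Igf1r was the negative member, at -0.18 ± 0.17. Notch signalling, which holds satellite cells quiescent, had 11 of 11 positive differences, 0 called, 2 higher at an unadjusted p under 0.05 and a median of 0.17, against the same shares of all genes (47.9% and 5.65%) and the same median of the brightest genes (0.06). Its mean per array was 8.39, 8.51, 8.42 and 8.55 under CR and 8.17, 8.29, 8.23 and 8.33 under control, without overlap. The ligand gene Jag1 differed by 0.38 ± 0.15 (limma adjusted p = 0.258) and the receptor gene Notch1 by 0.33 ± 0.14 (limma adjusted p = 0.317).

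Interferon-induced genes pointed the other way. Of 12 listed, 6 were measured, all 6 were negative, 0 were called, and 2 had an unadjusted p under 0.05, where 6.34% of all genes had one in that direction. Over all genes 47.9% were positive. The list median was -0.25 at T20, against -0.01 for all genes, and -0.09 over the other times. Irf7, the regulator that amplifies interferon production, measured 6.65, 6.53, 5.77 and 6.54 under CR and 6.81, 6.88, 6.95 and 7.02 under control (-0.54 ± 0.15, limma adjusted p = 0.133). Ifit3, an antiviral RNA-binding protein gene, measured 5.99, 6.68, 5.88 and 6.03 against 6.61, 6.45, 6.45 and 7.12 (-0.51 ± 0.22, limma adjusted p = 0.317). The diets did not overlap in Irf7 and overlapped in Ifit3. Inflammatory cytokine genes had 5 positive and 4 negative of 9 with a median of 0.02.

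Of the matrix genes, 21 were measured, 12 were positive, 0 were called and 3 had an unadjusted p under 0.05, all positive. Over all genes, 47.9% were positive and 5.65% were higher at that p. The 9 negative matrix genes reached -0.61, and the mean per array overlapped, with 8.25 to 8.28 under CR and 8.05 to 8.36 under control. CR arrays lay wholly above the control in 1 matrix gene and wholly below in 1, against 2.32% and 2.56% of all genes. Col15a1, a collagen of basement membrane zones, measured 9.51 to 10.25 under CR and 7.93 to 9.84 under control (0.84 ± 0.30, limma adjusted p = 0.234), with control replicate 2 the lowest. Col6a1, of the collagen VI of the stem cell niche, measured 10.26, 10.50, 10.33 and 10.71 against 10.07, 9.83, 10.20 and 10.11 (0.40 ± 0.13, limma adjusted p = 0.171). Tgfb3, a ligand of TGF-beta signalling, differed by 0.81 ± 0.24 (limma adjusted p = 0.133) in a list with 5 positive and 8 negative members. Respiratory chain genes were positive in 14 of 17 (median 0.18), against 47.9% of all genes and a median of 0.06 for the brightest. Uqcrc1 differed by 0.38 ± 0.16 and Ndufs1 by 0.46 ± 0.23, while the lowest member lay at -0.42. The mean of this list per array overlapped, with 8.24 to 8.82 under CR and 7.95 to 8.44 under control. In glycolysis, Pfkl (0.68 ± 0.27) and Hk2 (-0.41 ± 0.19) lay on opposite sides, and in fatty acid oxidation Acot2 differed by 0.67 ± 0.26.

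Lists with a median near 0 included glucocorticoid-induced genes (0.00, 11 measured), cytosolic ribosomal proteins (0.01, 14 measured) and immediate early genes (0.02, 15 measured), each with 0 members at an unadjusted p under 0.05 and 0 called. Of the FoxO and fasting targets, 6 of 9 were positive (47.9% of all genes were) with a median of 0.16. Klf15, a fasting-responsive factor, differed by 0.42 ± 0.25. Heat shock genes had 6 of 9 negative differences and a median of -0.12. In autophagy and lysosome genes 6 were positive and 6 negative, and Atg7, which activates the autophagy conjugation systems, differed by -0.34 ± 0.13 (limma adjusted p = 0.255).

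Markers of muscle stem cells were positive in 11 of 15 with a median of 0.13, against 47.9% of all genes and a median of 0.06 for the brightest. Itga7, the laminin receptor of these cells, differed by 0.35 ± 0.13 (limma adjusted p = 0.254). Mural cell markers split: of 7 listed 5 were measured, and the contractile genes Acta2 (0.46 ± 0.23, limma adjusted p = 0.395) and Myh11 (0.65 ± 0.34, limma adjusted p = 0.441) were positive, while the pericyte genes Kcnj8 (-1.05 ± 0.38, limma adjusted p = 0.234), Rgs5 (-0.80 ± 0.35, limma adjusted p = 0.33) and Pdgfrb (-0.52 ± 0.25, limma adjusted p = 0.388) were negative. Their mean per array was 8.62 to 9.51 under CR and 9.16 to 9.64 under control, lowest in CR replicate 1. With this mean as a covariate limma called 28 genes, 19 of the 20 among them. The mean joins genes that moved in opposite directions, so the run cannot show whether mural signal shaped the calls. Endothelial markers ranged from -0.38 (Egfl7) to 0.58 (Cdh5), and no listed member of any of the 37 lists passed the adjusted test at T20.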

How the data were processed

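Expression was measured on Affymetrix arrays of total RNA extracted with TRIzol from mouse muscle stem cells. Per the labels, 17 cycles of WTA2 amplification started from 25 ng, and 8 µg of fragmented, biotinylated cDNA was used per array. The authors made the values with RMA (processing notes of the submitters, no version); the deposited table holds 1.19 to 12.8, read here as a log2 scale. Of 45141 probe sets, 28898 had 1 gene symbol, 551 several and 15692 none; 28689 matched RefSeq (GRCm38.p6) by Entrez number. Probe sets with a mean over all arrays under the 40th percentile (4.50) were left out, and the brightest per gene was kept (11853 genes). limma 3.58.1 in R 4.3.3 was fitted to all arrays as 24 group means (80 residual degrees of freedom), with Benjamini-Hochberg adjustment at 5%; ± is SE for differences and SD for means. The test was tried on simulated data. Named genes were the clock lists, called genes without overlap, then up to 6 per direction by p, the 6 of smallest p per direction against other times, called list members (0), and the 2 brightest markers per cell type. Members and lists were chosen with earlier results of these data known. Some genes of the clock are not reported here. Replicate numbers did not pair arrays: deviations of same-numbered arrays correlated at 0.04, -0.17, -0.06 and 0.08. Depth does not apply to arrays; with 4 arrays per diet, their number limits the precision. SEs and limma p-values of differences rest on a spread estimated within the 24 groups of all arrays, not on the 8 T20 arrays alone. Alternatives were other filters, mean of probe sets, fewer arrays in the fit, array weights, quantile normalization, a residual component, a replicate block, a trended variance, omission of each array and 2 added after seeing the data.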

Additional observations from a re-analysis of the deposited data

Results flagged for a closer look

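Single arrays stood apart within a diet in 11 of 158 groups of 4 T20 values, tested in 79 named genes by the gap to the nearest array over the range; chance flags about 1 in 20. Under CR, replicate 2 was low in Hrct1 (4.85, the others 5.17 to 5.20), Per2 (6.98, the others 7.86 to 7.99), Cry2 (6.74, the others 7.60 to 7.71) and Csnk1d (11.43, the others 11.68 to 11.72). Replicate 4 was low in Arntl2 (5.24), and replicate 1 was high in the tenocyte gene Thbs4 (7.80, the others 6.70 to 6.81). Under control, replicate 2 was low in Arntl2 (5.64, the others 6.07 to 6.10) and Gpr179 (6.23), replicate 1 in Hsp90b1 (10.05) and replicate 3 in Nr1d2 (6.82), and replicate 4 was high in Csnk1e (8.47, the others 8.13 to 8.18).

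The diet difference at T20 departed from the mean of the other times in 2 genes, Pradc1 (1.19) and Hsp90b1 (0.50), with the values given above.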

How the results depend on the processing

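All 20 called genes kept their direction in every alternative that tested them (397 of 397 values), while the counts of calls moved. The kept direction was largely fixed in advance. Where the diets do not overlap, leaving out arrays cannot reverse a sign. Fits of fewer arrays, the residual component, the replicate block and the trended variance leave the diet differences unchanged. The 20 calls at T20 (9 higher, 11 lower) became 1 (1 and 0) with only the 8 arrays in the fit, 10 (4 lower) with the 50 aged arrays, 4 (2 and 2) with array weights, 5 (3 and 2) with added quantile normalization, 33 (21 lower) with the first residual component, 1 (1 and 0) with a replicate block, which was not among the 20, and 0 (0 and 0) without both arrays at the ends of the first component. They were 22 without a filter, 17 with the 60th percentile, 28 (14 higher) with the mean of probe sets, 19 with a trended variance and 28 with the pericyte and smooth muscle score. Leaving out single arrays gave 0 to 44 calls, with 0 to 22 higher and 0 to 22 lower. The 2 calls of T20 against the other times became 0 without a filter, 0 with the 50 aged arrays, 1 with array weights, 1 with quantile normalization, 15 with the residual component, 0 without both end arrays, 4 with the pericyte and smooth muscle score and 0 to 20 without single arrays. With the 50 aged arrays the calls at T4, T8 and T12 were 13, 14 and 8. Clock genes gave 0 calls throughout these runs. The cause of these moves was not tested. The replicate block rests on numbers that did not pair the arrays. The number of arrays, 4 per diet, limits what could be called.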
